A study of Homo sapiens with 8 samples.

Results

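The 10 circadian clock genes CLOCK, BMAL1, NPAS2, PER1, PER2, PER3, CRY1, CRY2, DBP and TEF were examined in the ATAC-seq peak list of 1 HepG2 library. The genes were taken by name, and a peak belonged to a gene when its summit lay in the GENCODE 44 gene body or within 20 kb of it. Of the 60628 peaks in the list, 69 met this rule, and none belonged to more than 1 of the genes. HepG2 is a human liver cancer line, here wild type and cultured in serum, and the labels give no treatment to synchronise the clock and no time of collection. The series held 8 libraries, fixed with 0.1, 0.5, 1 or 5% formaldehyde (FA) and then cryopreserved or flash-frozen. The list belonged to the library fixed with 0.1% FA and cryopreserved, and the other 7 were not analysed here. With 1 library there was no replicate and no comparison between conditions. All intervals below are 95% intervals. Those of folds cover counting error of fragments only. Those of motif shares treat peaks as random draws, which the peaks of genes taken by name are not.

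The mammalian clock is a feedback loop of transcription. CLOCK, or its relative NPAS2, pairs with BMAL1 and binds E-boxes in the genes of the PER and CRY repressors, whose proteins return to the nucleus and shut the pair off. The same pair drives DBP and TEF, basic leucine zipper activators that bind D-boxes, while the nuclear receptors ROR and REV-ERB compete for the RORE of BMAL1. ATAC-seq inserts adapters into accessible DNA with the Tn5 transposase, so a peak marks DNA that was open in the cell population and not a bound factor or a level of expression. In the liver this loop sets the daily timing of many metabolic genes.

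Among the sequence elements inside the 69 peaks, those at the start sites of the repressor genes, the output genes and BMAL1 are shown first. They are letter matches to the kinds of element used by the loop. Whether the loop acts through any of these copies was not tested. All sequences are of hg38, read 5′ to 3′ on the strand of the gene, with the matched element in capitals and distances counted from the canonical transcription start site (TSS, negative upstream) to the first base of the match. The E-box was searched as CACGTG, the E-prime box as CACGTT, the D-box as TTATGTAA or TTACGTAA and the RORE core as TAGGTCA or TGGGTCA, all on both strands. These letters do not overlap one another in the windows printed. Stretches that fall in an untranslated region of any transcript are cut to at most 30 bases.
PER2 E-prime box at -197 (chr2:238288791-238288818, minus strand): gcgcgcgcggtCACGTTttccactatgt
PER2 D-box at -328 (chr2:238288906-238288963, minus strand): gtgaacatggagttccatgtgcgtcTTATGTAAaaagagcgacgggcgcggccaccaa
PER3 E-box at -424 (chr1:7783842-7783897, plus strand): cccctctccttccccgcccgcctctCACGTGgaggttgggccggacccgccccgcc
PER3 E-box at -370 (chr1:7783896-7783951, plus strand): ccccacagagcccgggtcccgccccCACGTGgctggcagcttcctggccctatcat
PER3 D-box at -177 (chr1:7784089-7784146, plus strand): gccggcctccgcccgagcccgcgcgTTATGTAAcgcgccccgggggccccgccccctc
CRY1 E-prime box at -89 (chr12:107093608-107093663, minus strand): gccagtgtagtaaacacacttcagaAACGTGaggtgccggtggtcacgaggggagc
CRY2 E-prime box at -188 (chr11:45847262-45847317, plus strand): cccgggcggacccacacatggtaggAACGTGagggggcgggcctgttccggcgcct
CRY2 RORE at -65 (chr11:45847399-45847427, plus strand): ttgcggcgtcaTAGGTCActgggcgggct
BMAL1 RORE at 30 (chr11:13277809-13277837, plus strand): aaggcagaaagTAGGTCAgggacggaggt
DBP ROREs at -386 and -340 (chr19:48637688-48637790, minus strand): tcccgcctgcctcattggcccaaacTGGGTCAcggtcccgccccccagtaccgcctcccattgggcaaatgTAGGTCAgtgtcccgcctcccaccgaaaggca
TEF E-box at -503 (chr22:41381414-41381469, plus strand): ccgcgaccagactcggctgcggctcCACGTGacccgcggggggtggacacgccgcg
TEF E-box at -193 (chr22:41381724-41381779, plus strand): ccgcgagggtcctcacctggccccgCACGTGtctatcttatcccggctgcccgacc

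A second set holds the E-boxes that lay in peaks outside the TSS windows of PER1 and DBP, with the E-prime box between those of DBP. Both genes are textbook targets of CLOCK and BMAL1, and neither had an E-box in its TSS peak. The choice was made after the matches were seen. Body peaks of NPAS2 and TEF also held an E-box. That of NPAS2, at 55762 in a peak of 9.16-fold, is not printed, and that of TEF is printed below. The PER1 pair is printed as 1 run because both copies lay in the same peak.
PER1 E-box at -1339 (chr17:8153713-8153768, minus strand): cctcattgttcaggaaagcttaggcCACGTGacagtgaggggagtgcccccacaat
PER1 E-boxes at -4324 and -4140 (chr17:8156514-8156753, minus strand): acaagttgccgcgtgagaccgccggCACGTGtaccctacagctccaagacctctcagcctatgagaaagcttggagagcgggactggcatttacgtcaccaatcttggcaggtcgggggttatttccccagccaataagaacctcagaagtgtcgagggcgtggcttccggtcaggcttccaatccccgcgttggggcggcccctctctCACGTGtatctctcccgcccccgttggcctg
DBP E-box at 2678 (chr19:48634671-48634726, minus strand): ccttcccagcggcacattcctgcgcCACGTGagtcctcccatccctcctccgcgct
DBP E-prime box at 2751 (chr19:48634612-48634639, minus strand): ggggccgggggAACGTGagggcgccgat
DBP E-box at 2813 (chr19:48634550-48634577, minus strand): gcaggcgtcagCACGTGactcggccctg

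All 10 clock genes had a peak at the TSS, meaning a summit within 1000 bp of the start of the canonical transcript. Over the 20033 protein-coding genes of the annotation the share was 61%. Of the 69 peaks, 15 lay at the TSS, 25 in the gene body outside that window and 29 in the flanks. The genes CLOCK, NPAS2, PER2, PER3 and CRY1 each had 2 TSS peaks, and the other 5 genes had 1, whereas 23.3% of all protein-coding genes accessible at the start had at least 2. Summits lay upstream of the start in 13 of the 15 TSS peaks and downstream in 2. The share upstream over all TSS peaks was not computed, so this count is not read as a trait of clock genes. A gene body peak was called in 9 of the 10 genes, all but PER3, against 49.5% of protein-coding genes, and a flank peak in 10 of 10, against 72.5%. A longer gene has more room for a body peak, and the clock genes ran from 7.35 kb (DBP) to 176.691 kb (NPAS2). Of the 69 peaks, 14 also had a summit within 1000 bp of the start of a noncoding gene. Among them were TSS peaks of CLOCK, BMAL1, NPAS2, PER2 and CRY1, so their folds do not belong to the clock gene alone.

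The plot of the 10 loci shows where these peaks lay. The single strongest peak stood at the TSS in BMAL1, PER3 and CRY2, and body peaks were most numerous in NPAS2 and PER2.

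**Figure D1:**
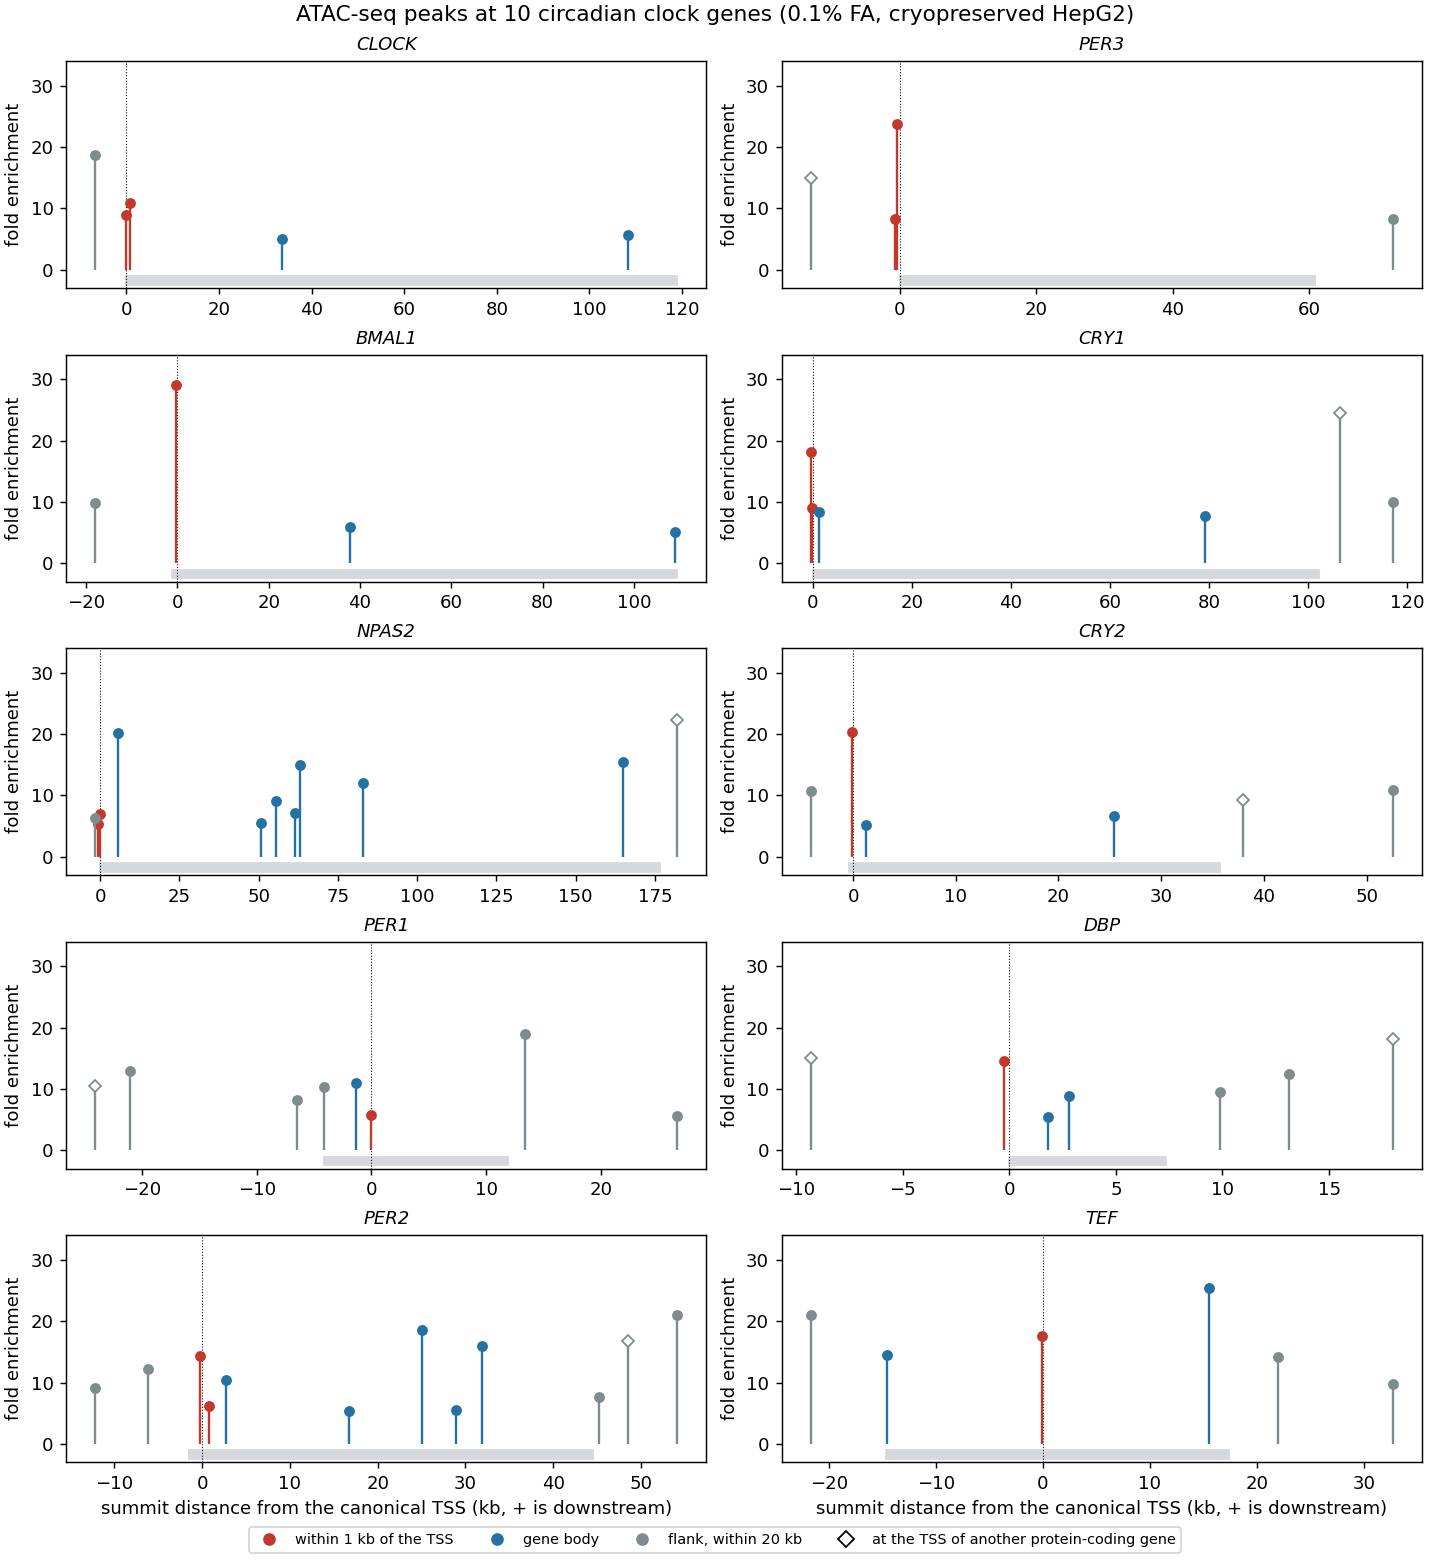
Each panel shows 1 clock gene, with the distance of each peak summit from the canonical TSS on the x axis (kb) and the fold enrichment at the summit on the y axis. Red marks are peaks within 1 kb of the TSS, blue marks gene body peaks and grey marks flank peaks, open diamonds lie at the TSS of another protein-coding gene, and the grey bar is the gene; the highest mark is at the TSS only for BMAL1, PER3 and CRY2.

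Fold enrichment is the value the authors deposited for each peak, the fragments piled up at the summit over the local background of the caller, with 1 added to both. The fragments at each summit were solved from the fold and its p-value, and all 69 peaks gave a whole number within 0.01 of a fragment. They ran from 5 to 88, with a median of 26, and 10 peaks rested on 10 or fewer. Over the 10 genes the fold of the strongest TSS peak had a median of 16.1, beside a median of 17.9 and quartiles of 12.9 and 22.8 over the 12229 protein-coding genes that had one. The clock genes all carried an open start site, while the fold there ranged from the top to the bottom of the list, and 4 of the 10 lay above the median of protein-coding genes.

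Of the activators, BMAL1, the partner of CLOCK or NPAS2 in the heterodimer, had the highest TSS fold of the 10 genes. Its single TSS peak (chr11:13277392-13277858) reached 29.0-fold (interval 23.3 to 35.7) from 88 fragments, at the 94.8th percentile of those 12229 genes and the 94.0th within chromosome 11. The summit lay 250 bp upstream of the canonical start, and also within 1000 bp of the start of a noncoding gene. The RORE printed above lay in the same peak at 30 bp downstream of that start, 283 bp from the summit. BMAL1 was otherwise sparsely marked, with gene body peaks of 5.95-fold (6 fragments) in intron 2 and 5.10-fold (5 fragments) in the last exon. A flank peak 17.927 kb upstream reached 9.84-fold.

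CLOCK, which heterodimerises with BMAL1 and has histone acetyltransferase activity, had weaker peaks at its start. They lay at 854 bp downstream (10.9-fold, interval 7.56 to 15.3, 32 fragments) and 104 bp upstream (8.89-fold, 26 fragments), and the better of these stood at the 16.8th percentile. The downstream summit was 123 bp from another annotated start of CLOCK, and its peak held an E-prime box at 790 and a RORE at 760. The strongest peak of the locus lay outside the gene, 6.707 kb upstream of the start, at 18.6-fold (interval 12.5 to 26.8).
CLOCK RORE and E-prime box at 760 and 790 (chr4:55546089-55546174, minus strand): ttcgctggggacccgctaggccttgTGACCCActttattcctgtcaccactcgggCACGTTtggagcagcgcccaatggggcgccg

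NPAS2, which can take the place of CLOCK, had the pattern opposite to BMAL1. Its TSS peaks were weak, at 7.01-fold (interval 4.18 to 11.1, 16 fragments) and 5.32-fold (12 fragments), and the better of them stood at the 4.23rd percentile. Its body held 7 peaks, more than any other of the 10 genes. The strongest of these (chr2:100825535-100826042) lay in intron 1, 5.582 kb downstream of the start, at 20.2-fold (interval 16.0 to 25.2) from 76 fragments, so its interval did not overlap that of either TSS peak. Another intron 1 peak, 63.175 kb downstream, reached 15.0-fold and held 3 ROREs, at 63003, 63166 and 63195 bp, and a peak in intron 16 reached 15.4-fold. The peak 182.085 kb downstream, at 22.3-fold, lay at the TSS of the neighbouring ribosomal protein gene RPL31.

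Of the repressors, the 3 PER genes spanned most of the range at the TSS, from 23.8-fold in PER3 to 5.81-fold in PER1. PER3 had a TSS peak (chr1:7783824-7784207) of 23.8-fold (interval 18.2 to 30.5, 59 fragments, 78.9th percentile) and a second of 8.33-fold, 327 and 701 bp upstream. Both PER3 E-boxes lay within 100 bp of the stronger summit. PER3 had no gene body peak over 60.887 kb, and of its 2 flank peaks the one of 15.0-fold lay at the TSS of VAMP3, a vesicle fusion gene.

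PER2 had 12 peaks, more than any other of the 10 genes. At the start, the stronger peak (chr2:238288734-238289254) reached 14.3-fold (interval 11.4 to 17.7) and the weaker 6.16-fold. The stronger one rested on 82 fragments, close to the 88 of BMAL1, but over a local background of 4.82 fragments where BMAL1 had 2.07. No other strongest TSS peak of the 10 genes had a background as high. The E-prime box and the D-box of PER2 both lay in this peak, within 100 bp of its summit. Beyond the TSS, intronic peaks reached 18.6-fold in intron 9 and 15.9-fold in intron 17, and the latter held a D-box at 31823 bp. An E-prime box at -6213 bp lay in a flank peak of 12.2-fold. The flank peak of 21.1-fold, 54.135 kb downstream of the start, was the strongest of the locus, and the one of 16.7-fold lay at the TSS of HES6, a transcriptional repressor gene.
PER2 D-box at 31823 (chr2:238256755-238256812, minus strand): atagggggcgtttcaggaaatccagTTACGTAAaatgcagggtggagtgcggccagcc

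PER1, an immediate-early as well as a clock-driven gene, had the lowest TSS fold of the 10 genes. Its single TSS peak (chr17:8152389-8152505) was 117 bp wide and reached 5.81-fold (interval 3.61 to 8.90) from 19 fragments, at the 1.28th percentile. GENCODE 44 lists 19 starts for PER1, and accessible DNA lay upstream of the canonical one. Peaks stood 1.375 kb upstream (10.9-fold, interval 7.76 to 14.9, 37 fragments) and 4.167 kb upstream (10.4-fold, interval 7.42 to 14.1, 38 fragments), the second of them 65 bp from an annotated start. Both upstream peaks held E-boxes within 100 bp of the summit, and the TSS peak held no clock element. The intervals of these peaks overlap that of the TSS peak. The strongest peak of the locus, at 19.0-fold, lay 13.375 kb downstream of the start and beyond the 3′ end of the gene, and flank peaks of 12.9-fold and 10.4-fold lay at the TSS of SNORD118, a small nucleolar RNA gene, and of TMEM107, a cilium transition zone gene.

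The CRY genes, whose products repress CLOCK and BMAL1 directly, both had an E-prime box at the start. CRY2 had 1 TSS peak (chr11:45847208-45847496) of 20.3-fold (interval 16.1 to 25.4) from 76 fragments, at the 62.9th percentile, with its E-prime box and RORE both within 100 bp of the summit. CRY1 had peaks of 18.2-fold (interval 13.5 to 24.1, 47 fragments, 51.3rd percentile) 365 bp upstream and of 9.09-fold (23 fragments) 50 bp upstream, and its E-prime box lay in the weaker one. Outside the start, CRY1 had a body peak of 8.30-fold in intron 1 and one of 7.66-fold in intron 2, and CRY2 had 5.26-fold and 6.73-fold peaks in introns 1 and 11. The highest fold of the CRY1 locus, 24.4, belonged to the TSS of MTERF2, a mitochondrial transcription factor gene, and a CRY2 flank peak of 9.32-fold to the TSS of MAPK8IP1, a kinase scaffold gene.

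Of the output genes, TEF had a TSS peak (chr22:41381358-41381983) of 17.6-fold (interval 13.9 to 22.1) from 72 fragments, at the 48.4th percentile, and at 626 bp it was the widest of the 69 peaks. Both E-boxes at the TEF start lay inside it. A further E-box, at -14682 bp, lay in a peak of 14.4-fold whose summit was 94 bp from an alternative TEF start. The strongest TEF peak (chr22:41397374-41397671), at 25.4-fold (interval 19.4 to 32.8), lay in the 3′ untranslated part of exon 4, 15.533 kb downstream of the canonical start.
TEF E-box at -14682 (chr22:41367235-41367290, plus strand): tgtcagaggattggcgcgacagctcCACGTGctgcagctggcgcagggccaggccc

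DBP, the founding member of the same family, is the shortest of the 10 genes. It had 1 TSS peak (chr19:48637403-48637806) of 14.6-fold (interval 10.8 to 19.3) from 46 fragments, at the 32.5th percentile, with both ROREs inside. Its body peaks reached 8.79-fold (30 fragments) in intron 2 and 5.49-fold (18 fragments) in coding exon 2. The intron 2 peak spanned 209 bp (chr19:48634507-48634715), with E-boxes at 2678 and 2813 and the E-prime box at 2751, and its summit was 38 bp from an alternative DBP start. The flanks of DBP held stronger peaks at other genes, 18.2-fold (78 fragments) at the shared start of RPL18 and SPHK2, a ribosomal protein and a sphingosine kinase gene, and 15.1-fold at CA11, a carbonic anhydrase-related gene.

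In the order of TSS fold, BMAL1 was followed by PER3, CRY2, CRY1, TEF, DBP, PER2, CLOCK, NPAS2 and PER1. The counting intervals of each adjacent pair in this order overlapped, so neighbours were not separated at this depth. The interval of BMAL1 lay above those of TEF, DBP, PER2, CLOCK, NPAS2 and PER1, and that of PER1 below those of PER3, CRY2, CRY1, TEF, DBP and PER2. The order is that of canonical starts. With any annotated start, PER1 rose from 5.81-fold to 10.4-fold and stood above NPAS2, PER2 rose from 14.3-fold to 18.6-fold and stood above CRY1, and the other 8 genes kept their folds. The order by fragments at the summit was different, with PER2 in second place behind BMAL1. Ranked within its own chromosome, PER1 stood at the 1.74th percentile and NPAS2 at the 4.90th, and TEF moved farthest, from the 48.4th to the 59.2nd. DNA copy number of the loci was not measured, and its part in these folds was not tested.

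**Figure D2:**
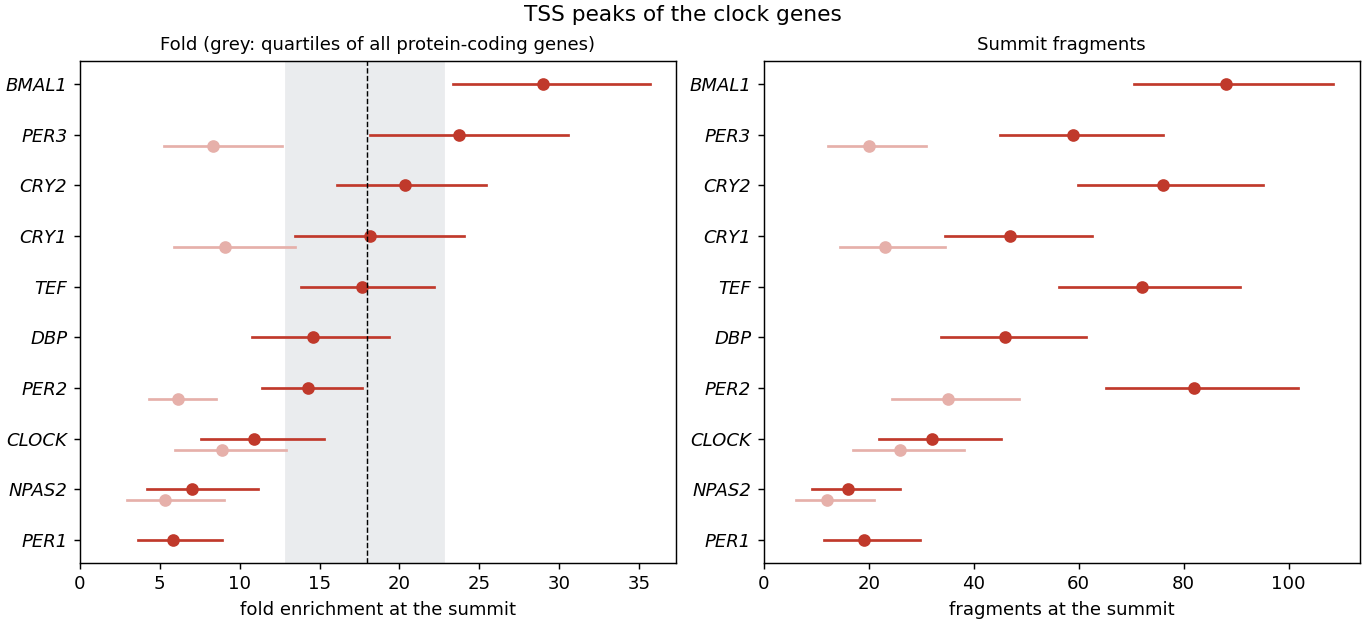
TSS peaks of the clock genes, with fold enrichment at the summit on the left and fragments at the summit on the right (x axes); dark points are the strongest TSS peak of a gene, pale points its second one, and bars are exact Poisson 95% intervals. The grey band and dashed line on the left are the quartiles (12.9 and 22.8) and median (17.9) over the strongest TSS peaks of all protein-coding genes, and the points run from 29.0 for BMAL1 to 5.81 for PER1.

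The strongest peak of the locus lay at the TSS in 3 of the 10 genes, BMAL1, PER3 and CRY2. This held for 49.3% of the 11397 protein-coding genes that had at least 2 peaks, 1 of them at the TSS. These shares were not matched for peak number, and the clock genes had from 4 peaks (BMAL1 and PER3) to 12 (PER2). Peaks per 100 kb of gene and flanks had a median of 6.48 in the clock genes and 4.14 over all protein-coding genes. Density was highest in DBP (14.8 per 100 kb), PER1 (14.3) and PER2 (13.9) and lowest in BMAL1 (2.66). Of the 29 flank peaks, 8 lay at the TSS of another protein-coding gene, and 46 peaks of body and flank lay at no protein-coding TSS. Of the 25 body summits, 20 lay in an intron of the canonical transcript. The flank and intron counts describe these loci only, as their shares over all protein-coding genes were not computed. The 15 TSS peaks of the clock genes had a median fold of 10.9, second peaks included, beside 15.6 over all 13578 TSS peaks of the list. The distal peaks of the clock genes had a median fold of 9.81 and a median GC content of 54.7% within 100 bp of the summit, beside 9.88 and 50.7% over the 46896 peaks of the list at no protein-coding TSS.

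Some peaks lay close to the limits of the rule. The TSS peaks farthest from the start lay at 854 bp in CLOCK, 800 bp in PER2 and 701 bp in PER3, and the body or flank peaks nearest to the 1000 bp limit lay at 1212 bp in CRY1 (8.30-fold), 1243 bp in CRY2 (5.26-fold), 1375 bp in PER1 (10.9-fold) and 1488 bp in NPAS2 (6.31-fold). At the 20 kb limit, PER1 had a peak of 10.4-fold inside at 19.963 kb and one of 10.6-fold outside at 20.203 kb.

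The clock elements were then counted within 100 bp of each summit. Both TSS peaks of CLOCK, NPAS2, PER2, PER3 and CRY1 are among the 15, so the peaks are not independent. Of the 15 TSS peaks, 7 held at least 1 of the 4 elements (46.7%, interval 21.3 to 73.4%), 1 peak each of CLOCK, PER2, PER3, CRY1, CRY2, DBP and TEF. The share over the 13578 peaks at any protein-coding TSS was 13.1%. The E-box itself was in 2 of 15 (13.3%, interval 1.66 to 40.5%), those of PER3 and TEF, beside 7.77% over all TSS peaks, a share inside the interval. The E-prime box was in 4 of 15 (26.7%, interval 7.79 to 55.1%), those of CLOCK, PER2, CRY1 and CRY2, beside 3.46%. A D-box or RORE was in 4 of 15 (26.7%, interval 7.79 to 55.1%), those of CLOCK, PER2, CRY2 and DBP, beside 2.7%. The RORE alone was in 3 of 15 (interval 4.33 to 48.1%), beside 2.42%. The D-box of PER2 was the only D-box, and none of the 4 peaks with a D-box or RORE had it within 50 bp of the summit. The TSS peaks of BMAL1, NPAS2 and PER1 held no clock element in this window.

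At distal peaks, those outside the TSS windows of canonical protein-coding starts, the shares of the list lay inside the intervals of the clock genes for each of the 4 elements. An E-box lay within 100 bp of the summit in 3 of 46 distal peaks (6.52%, interval 1.37 to 17.9%), beside 3.96% over the list, and the 3 were both upstream peaks of PER1 and the intron 2 peak of DBP. Of these, the PER1 peak 4.167 kb upstream and the DBP peak lay at alternative starts of their own gene, 65 and 38 bp away. Any clock element was in 7 of 46 (15.2%, interval 6.34 to 28.9%), beside 13.4%. The RORE core was in 1 of 46 (2.17%, interval 0.055 to 11.5%), beside 5.91%. Over the whole called peaks, which covered 1.52% of the 1106955 bp of the 10 loci, lay 11 of the 145 E-boxes of these loci (7.59%), 7 of 165 E-prime boxes (4.24%), 3 of 74 D-boxes (4.05%) and 8 of 277 RORE cores (2.89%). The 11 E-boxes were 3 each in PER1 and TEF, 2 each in PER3 and DBP and 1 in NPAS2. The shares of elements inside called peaks were not computed for other genes. They therefore cannot show whether clock elements lay in peaks more often here than elsewhere. A match names letters in accessible DNA and does not say that a factor was bound there.

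**Figure D3:**
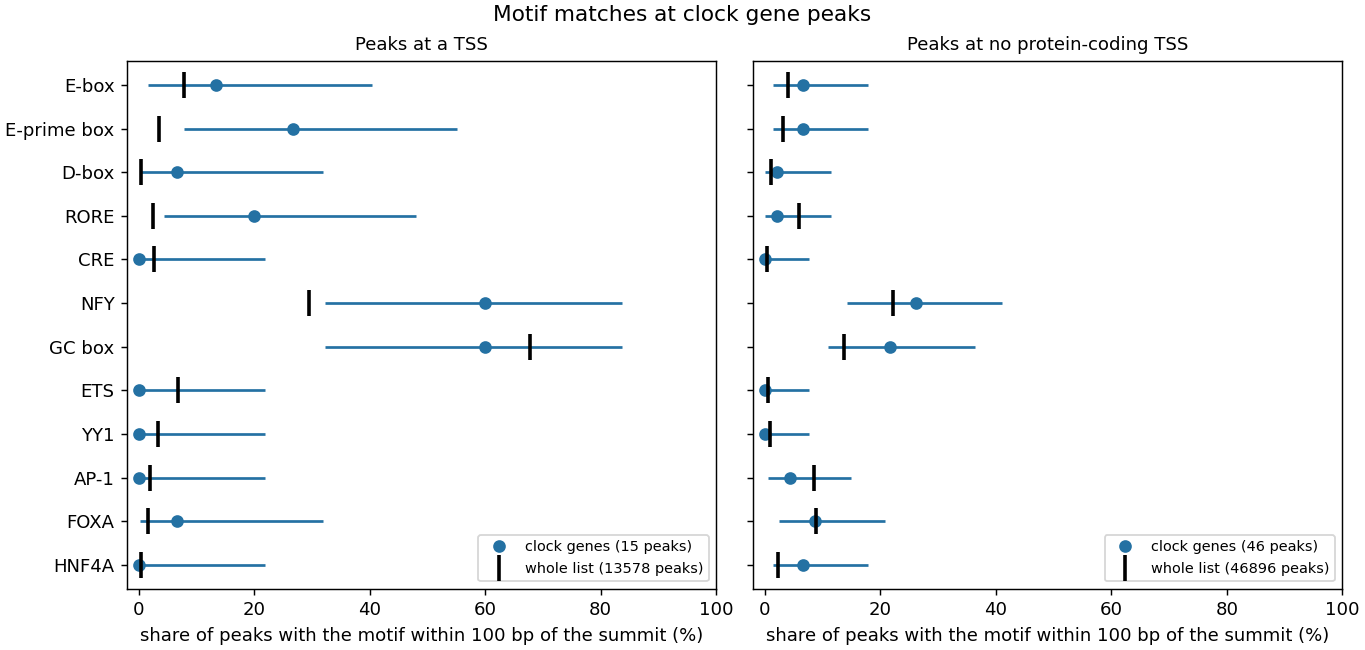
Share of peaks with each motif within 100 bp of the summit (x axis, %), for the 15 TSS peaks (left) and the 46 distal peaks (right) of the clock genes (points, with exact binomial 95% intervals) and for all peaks of the same class in the list (black bars). At the TSS the E-prime box and NFY points lie at 26.7 and 60.0%, with the bars of all peaks outside their intervals, as is the RORE bar, while the E-box bar lies inside its interval.

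Elements of general promoters were searched in the same windows. The NFY element CCAAT, bound by the promoter factor NF-Y, was in 9 of the 15 TSS peaks (60.0%, interval 32.3 to 83.7%), beside 29.5% over all TSS peaks, and BMAL1 held 4 copies within 100 bp of the summit, PER1 and DBP 3 each. The GC box GGGCGG, bound by SP1-type factors, was in 9 of 15 (60.0%), beside 67.7%. The CRE TGACGTCA, the ETS element CCGGAAGT, the YY1 element AAGATGGC, the AP-1 element TGAGTCA and the HNF4A core CAAAGTCCA were in 0 of 15. The exact binomial interval allows shares of up to 21.8%. Over all TSS peaks the shares were 2.64, 6.72, 3.35, 1.94 and 0.43% in that order, all inside this interval. The FOXA element TGTTTAC was in 1 of 15 TSS peaks (6.67%), the one of CRY1 50 bp upstream, beside 1.58% over all TSS peaks. At distal peaks the elements of the liver factors were in 4 of 46 for FOXA (8.70%, beside 8.84%) and 3 of 46 for HNF4A (6.52%, interval 1.37 to 17.9%, beside 2.34%). The CCAAT boxes of BMAL1 and TEF are printed, as the strongest TSS peak and the widest, over 75 bp to either side of the summit, a choice made after their values were seen.
BMAL1 summit with CCAAT (chr11:13277465-13277615, plus strand): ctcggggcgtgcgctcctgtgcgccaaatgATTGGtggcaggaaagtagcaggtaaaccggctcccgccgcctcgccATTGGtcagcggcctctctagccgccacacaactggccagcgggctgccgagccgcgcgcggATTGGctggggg
TEF summit with CCAAT (chr22:41381754-41381904, plus strand): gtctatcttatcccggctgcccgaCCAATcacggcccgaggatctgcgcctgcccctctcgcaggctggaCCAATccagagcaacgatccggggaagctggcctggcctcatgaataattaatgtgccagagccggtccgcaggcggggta

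The other genes of the clock were taken as a list of 20 receptors, kinases, ubiquitin ligase parts and accessory factors. Of these, 17 had a TSS peak (85.0%), beside 61% of all protein-coding genes. Their median fold was 16.5, beside 17.9. The highest folds were those of BTRC (26.0), an F-box protein that marks PER for degradation, SIRT1 (21.9), an NAD-dependent deacetylase, FBXW11 (20.8), the paralogue of BTRC, and HLF (20.5), the relative of DBP and TEF. The 3 without a TSS peak were RORB, BHLHE41 and CIART. The nearest summit to the start of RORB, a receptor best known from retina and brain, was 225 kb away, whereas those to BHLHE41 and CIART, both repressors of CLOCK and BMAL1, were 1.61 and 2.04 kb away. The plot of these genes shows the folds of all 20.

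**Figure D4:**
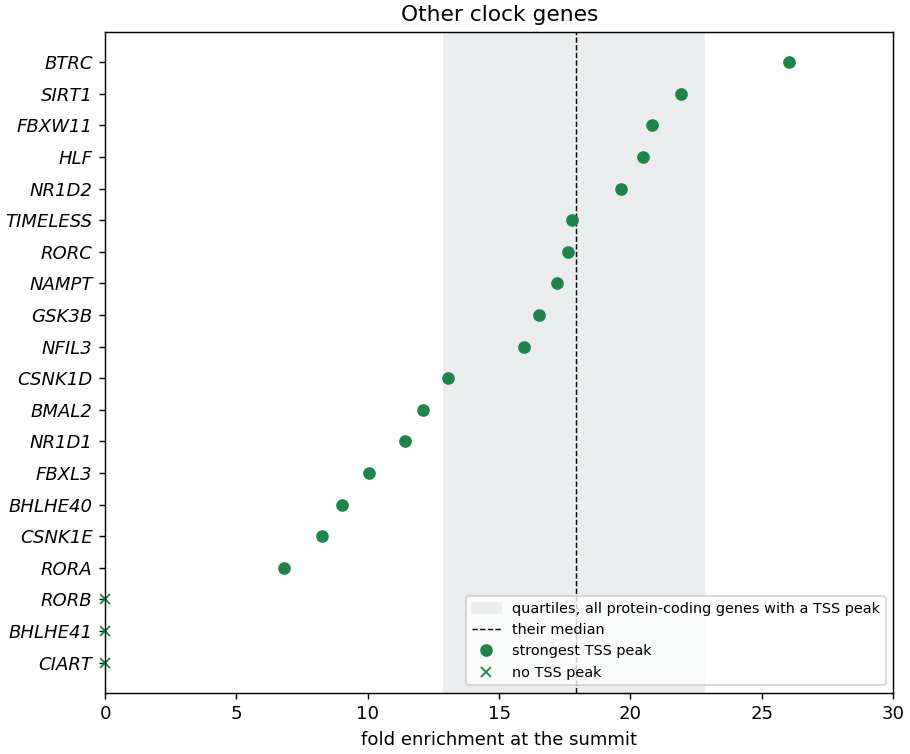
Fold enrichment of the strongest TSS peak (x axis) for 20 further clock genes, in descending order, with crosses at 0 for the 3 genes with no TSS peak. The grey band and dashed line are the quartiles and median over the strongest TSS peaks of all protein-coding genes, and the points run from 26.0 for BTRC down, with 5 of 17 above the median of 17.9.

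The cell line was checked against its markers. Of 11 hepatocyte genes, 10 had a TSS peak, all but ALB. Of 12 genes of blood, endothelial and fibroblast or stellate cells, 0 had one. The share over all protein-coding genes was 61%. The nearest summits to the starts of LCK and COL1A1 lay just past the limit, at 1.021 and 1.263 kb, and PECAM1 and PDGFRB had 7 and 5 body peaks.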

How the data were processed

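ATAC-seq libraries of HepG2 cells were made by the Omni-ATAC procedure after fixation and preservation. Per the study's methods, trimming by the authors used cutadapt, alignment to GRCh38 used Bowtie2, and samtools took out duplicates. MACS2 was run on this library alone, with what the methods call standard parameters. For MACS2, no version number is given in the sources used here. The labels also name bcl2fastq and deepTools 3.5.5. Peak names refer to an alignment of filtered short fragments, so the fragments counted may be a part of the library. The deposited score of a peak is a rescaled q-value. The deposited ratio is a fold, the summit pileup against the background the caller estimated nearby. The authors also deposited -log10 p and -log10 q for each summit, and the lowest -log10 q is 3.01, so a gene without a peak had none past the threshold of the caller. Sequencing depth is unknown, and the fragments at the summits set the precision.

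Genes, canonical starts and exons were those of GENCODE 44, with sequence from hg38. Fragments (k) and background were solved from fold and p under the Poisson model of the caller, a step chosen after seeing the data. For 2 peaks, the TSS peak of PER1 and the stronger one of PER3, a second whole number also solved the pair. The solution nearest a whole number was kept. Its background was 2.44 for PER1 and 1.53 for PER3, beside 2.49 and 1.52 at the nearest other peak of each locus. Intervals are exact Poisson or exact binomial at a 95% level. The scripts were tested on simulated data. No test between conditions was possible with 1 library. The genes named are the 10 members, the 4 of the other clock genes with the highest TSS fold and those lacking a TSS peak. Protein-coding genes whose TSS window holds a counted summit are also named, and SNORD118. Other noncoding genes at counted summits are not named. The members, gene lists and motifs were chosen with earlier results of these data known. Scripts ran on Python 3.11.15 with pandas 2.3.3, numpy 2.4.6, pysam 0.24.0, scipy 1.17.1 and matplotlib 3.10.9. Alternatives were stricter -log10 q limits of 10 and 20, other TSS and flank windows, any annotated start, overlap of the whole peak in place of its summit, and other motif windows.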

Additional observations from a re-analysis of the deposited data

How the results depend on the processing

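Of 56 alternative values, 47 stayed within 1.5 times the count or within the counting interval, and 9 moved. With a -log10 q of at least 10 the clock genes kept 13 gene body peaks in place of 25, and NPAS2 and PER1 lost their TSS peak, which left 8 genes with one. With at least 20, 33 peaks remained in all, 8 at the TSS, 9 in the body and 16 in the flanks. Flanks of 10 kb held 18 peaks and flanks of 50 kb held 61. Leaving out flank peaks at the start of any other gene, noncoding genes included, left 16. With 50 bp to either side of the summit, the share of TSS peaks with a D-box or RORE was 0%, since all 4 matches lay farther out. The 10 peaks of 10 or fewer fragments have the widest counting intervals relative to their fold. No paired analysis was possible because each group held 1 library and no test was run.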
